A study of Ovis aries with 36 samples.

Results

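MAP kinase phosphatases and the Sprouty family are feedback inhibitors of growth factor and stress signalling. Here 9 of their genes were followed in cultured cells labelled as sheep ruminal epithelial cells. The members were chosen by gene symbol: DUSP2, DUSP4, DUSP5, DUSP6, DUSP8, DUSP10, SPRY2, SPRY4 and SPRED1. All 9 were found among the 35223 genes of the deposited count table, and all 9 were among the 22488 genes that passed the filter on low counts. They were chosen with their difference between the media already known, so that difference is given below as values with standard errors and no test.

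The study measured RNA by sequencing in cells labelled as ruminal epithelial cells. This epithelium lines the forestomach, and volatile fatty acids (VFAs) made by rumen microbes are absorbed across it. Cells labelled Grain-VFAs were kept in a medium with 71.1 mM acetate, 20.1 mM propionate, 16.0 mM butyrate, 1.7 mM valerate, 1.1 mM isobutyrate and 5.3 mM isovalerate, for a stated total of 115.78 mM. Cells labelled Hay-VFAs were kept in a medium with 60.8 mM acetate, 14.6 mM propionate, 9.2 mM butyrate, 1.2 mM valerate, 1.0 mM isobutyrate and 3.0 mM isovalerate, for a stated total of 89.79 mM. Both groups first spent 2 h without serum in 100 nM dexamethasone, a glucocorticoid that sets cellular clocks to a common phase, and both media were brought to pH 7.2. Each medium had 3 libraries at each of 6 harvests, named T0, T4, T8, T12, T16 and T20 and made 4 h apart at 24, 28, 32, 36, 40 and 44 h, which gave 36 libraries. From which event these hours run is not clear from the labels. No group without added VFAs was analysed here. Acetate, propionate and butyrate were added as sodium salts, so VFA concentration and sodium cannot be told apart.

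Growth factors bind receptor tyrosine kinases, which switch on RAS and then the kinase cascade that ends in ERK. Stress signals and cytokines act through parallel cascades that end in the JNK and p38 kinases. MAP kinase phosphatases of the DUSP family remove phosphate from the activated kinases at the end of these cascades. Sprouty and Spred proteins act higher up, between the receptor and RAF. In mammalian cells ERK signalling raises the transcripts of several of these inhibitors, so that the pathway limits itself, and transcripts such as DUSP6 and SPRY4 are commonly read as markers of ERK output. These roles come mostly from human and mouse cells.

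Total counts per library ran from 52.4 to 68.1 M. The first principal component of all genes separated the media with 46.4% of the variance, against 5.31% for the second. Levels are given in CPM, which are counts corrected for the size of each library. Mesenchymal markers summed to between 76815 and 130412 CPM in Grain libraries and to between 68690 and 93305 CPM in Hay libraries. FN1 held most of this sum, with means of 75025 CPM in Grain and 59792 CPM in Hay. The 10 epithelial markers summed to between 303 and 707 CPM in Grain libraries, where KRT4 had no count, and to between 445 and 536 CPM in Hay libraries. COL1A2 alone had means of 3961 CPM in Grain and 6473 CPM in Hay, against 44.2 and 65.8 CPM for CDH1. By these markers each library held far more mesenchymal than epithelial transcript, whatever the label of the cells. Leukocyte markers summed to between 3.62 and 5.29 CPM in Grain and between 4.19 and 6.75 CPM in Hay, and endothelial markers to between 4.45 and 7.26 CPM in Grain and between 5.20 and 8.86 CPM in Hay. The markers also moved between the media: of the 9 epithelial markers tested, 3 were higher in Grain (among them KRT14, log2 0.74) and 6 lower (among them KRT8, -1.22, and CDH1, -0.57), with a median of -0.57. Of the 10 mesenchymal markers, 6 were higher (among them VIM, 1.04, and POSTN, 1.59) and 4 lower (among them COL1A1 and COL1A2, both at -0.74), with a median of 0.21. The part of these markers in the results below was not tested, and in bulk RNA fewer cells of a type and less RNA per cell cannot be told apart. Whether replicates were separate cultures or animals is not given by the labels, so p-values measure only the spread between these libraries, which may be technical.

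DUSP2, DUSP4 and DUSP5 encode inducible phosphatases of the nucleus. DUSP2 acts on ERK and p38, DUSP4 on ERK and JNK, and DUSP5 on ERK. In Grain medium DUSP2 stood at 12.1, 15.6 and 12.8 CPM at T0, at 13.4, 14.9 and 15.2 CPM at T4, at 16.7, 16.1 and 16.0 CPM at T8, at 4.34, 4.04 and 3.52 CPM at T12, at 6.89, 5.65 and 6.25 CPM at T16, and at 7.62, 6.81 and 7.94 CPM at T20. In Hay medium it stood at 1.58, 1.92 and 1.58 CPM at T0, at 2.01, 1.39 and 1.27 CPM at T4, at 2.07, 0.997 and 1.63 CPM at T8, at 2.11, 2.14 and 1.58 CPM at T12, at 1.83, 1.86 and 2.71 CPM at T16, and at 1.60, 1.61 and 1.82 CPM at T20. Every Grain library lay above every Hay library, which 15.4% of genes did. Within Grain the 9 libraries of T0 to T8 all lay above the 9 of T12 to T20. How many other genes split this way within Grain was not counted. The place of the split was seen in these data, and 50.0% of all genes were called at T12 against T8 in Grain. Averaged over the 6 times, DUSP2 was 5.22-fold higher in Grain (log2 2.39, SE 0.070). Its level in Grain depended on harvest time (adjusted p = 8.06e-14, edgeR quasi-likelihood F test over 22488 genes). In Hay no dependence on time was called (adjusted p = 0.237), and without Hay T8 replicate 1 that value was 0.0488. With T0 to T8 fitted alone, no dependence on time was called in Grain (adjusted p = 0.341).

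**Figure D1:**
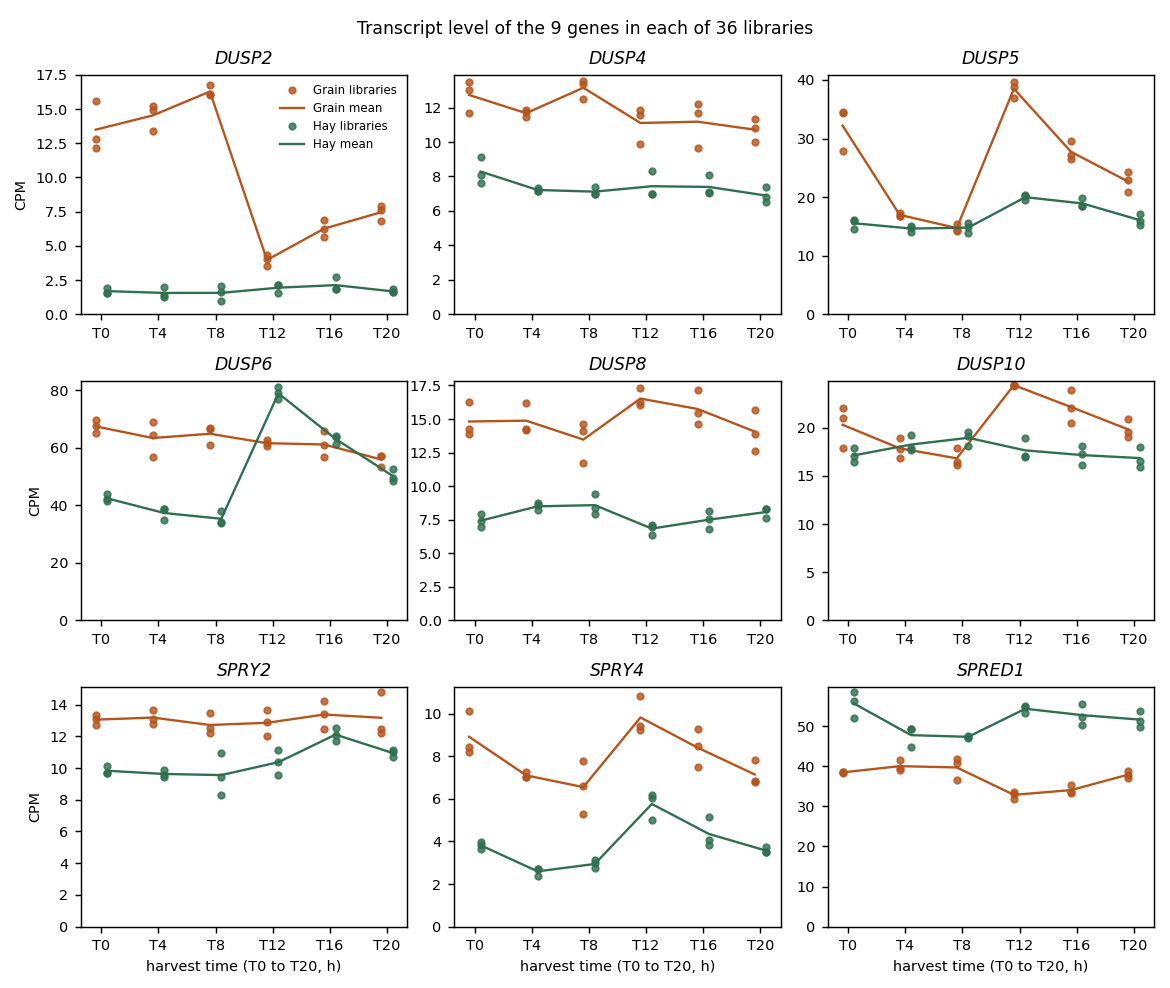
Level of each of the 9 genes (CPM, y axis, starting at 0) by harvest time (x axis, T0 to T20) in Grain and Hay media. Points are the 3 libraries of a group and lines join the group means; DUSP2 in Grain drops between T8 and T12 to a mean of 3.97 CPM, and DUSP6 in Hay climbs to a mean of 79.0 CPM at T12.

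DUSP5 followed another course. In Grain medium it stood at 34.5, 34.3 and 27.9 CPM at T0, at 16.7, 17.4 and 16.9 CPM at T4, at 15.4, 14.3 and 14.5 CPM at T8, at 38.9, 39.6 and 37.0 CPM at T12, at 26.6, 29.5 and 27.1 CPM at T16, and at 20.9, 24.2 and 22.8 CPM at T20. In Hay medium it stood at 14.6, 16.0 and 16.1 CPM at T0, at 14.7, 14.1 and 15.1 CPM at T4, at 14.9, 15.6 and 13.9 CPM at T8, at 19.5, 20.3 and 20.1 CPM at T12, at 18.6, 18.4 and 19.8 CPM at T16, and at 15.3, 15.9 and 17.1 CPM at T20. The Grain libraries were high at T0 and T12 and overlapped the Hay libraries at T8 alone. At each other time they lay above, as did 31.4% to 33.4% of all genes at any 1 time. The share of genes that did so at all 5 of these times was not counted. The ratio of its highest to its lowest time mean was 2.62 in Grain (T12 over T8) and 1.37 in Hay (T12 over T4). Harvest time was called in Grain (adjusted p = 2.16e-19) and in Hay (adjusted p = 4.47e-07), where it was lost with T0 to T8 alone (0.777).

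DUSP4 ran between 9.66 and 13.6 CPM in the 18 Grain libraries (median 11.7), against 6.51 to 9.15 CPM in the 18 Hay libraries (median 7.16). The media did not overlap, and the difference lay between 0.58 and 0.89 on the log2 scale at the 6 times. Time was called in Grain (adjusted p = 0.0251) and not in Hay (adjusted p = 0.214), and the Grain call was lost when any of 3 Grain libraries was left out (T8 replicate 1, T8 replicate 2 or T20 replicate 2, adjusted p between 0.0672 and 0.0921). In Grain it was also lost with T0 to T8 alone (adjusted p = 0.229) and with T12 to T20 alone (adjusted p = 0.893). The F test of whether the time course differed between the media was not called for DUSP4 (adjusted p = 0.334). The annotated span of DUSP4 overlaps that of the gene LOC121818096. The library kit keeps no strand, so reads in the shared stretch may come from either gene. Whether that stretch holds exons was not examined.

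DUSP6 encodes a cytoplasmic phosphatase with a preference for ERK. In Grain medium it stood at 69.8, 65.2 and 67.6 CPM at T0, at 64.5, 68.9 and 56.9 CPM at T4, at 66.7, 67.0 and 61.1 CPM at T8, at 62.8, 61.6 and 60.6 CPM at T12, at 61.0, 65.9 and 56.7 CPM at T16, and at 57.2, 53.4 and 57.3 CPM at T20. In Hay medium it stood at 43.9, 42.1 and 41.4 CPM at T0, at 38.7, 34.8 and 38.7 CPM at T4, at 34.2, 38.1 and 33.8 CPM at T8, at 76.9, 79.0 and 81.0 CPM at T12, at 61.4, 64.2 and 64.0 CPM at T16, and at 49.7, 52.6 and 48.5 CPM at T20. All Grain libraries lay above the Hay libraries at T0, T4, T8 and T20, all lay below them at T12, and the media overlapped at T16. At any 1 time, 31.4% to 33.4% of all genes had the 3 Grain libraries above the 3 Hay libraries. Another 32.0% to 35.2% had them below. How many genes changed order between times as DUSP6 did was not counted. The log2 difference, Grain over Hay, was 0.88 (SE 0.057) at T8 and -0.36 (SE 0.056) at T12. DUSP6 varied 1.21-fold between its time means in Grain (adjusted p = 0.00292) and 2.23-fold in Hay (adjusted p = 3.09e-19). With T0 to T8 fitted alone the Grain call was lost (adjusted p = 0.541).

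DUSP8 and DUSP10 encode phosphatases that act mainly on JNK and p38. DUSP8 ran between 11.7 and 17.3 CPM in Grain (median 14.6), against 6.39 to 9.41 CPM in Hay (median 7.94), with no overlap. DUSP8 was 1.91-fold higher in Grain on average (log2 0.93, SE 0.038). DUSP10 ran between 16.1 and 24.5 CPM in Grain (median 20.0), against 16.0 to 19.6 CPM in Hay (median 17.7), and the media overlapped over all libraries. At T8 the 3 Grain libraries of DUSP10 lay below the 3 Hay libraries, with means of 16.8 ± 0.944 CPM in Grain and 19.0 ± 0.767 CPM in Hay (SD, n = 3 each). At T12 they lay above, with means of 24.4 ± 0.0687 CPM in Grain and 17.7 ± 1.12 CPM in Hay (SD, n = 3 each). Of all genes, 32.0% had the Grain libraries below at T8 and 32.7% had them above at T12. The share of genes that did both was not counted.

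Time was called for DUSP10 in Grain (adjusted p = 2.35e-07) and not in Hay (adjusted p = 0.285). For DUSP8 it was called in Hay (adjusted p = 0.0323) and not in Grain (adjusted p = 0.0596). Both DUSP8 results sat near the threshold. In Grain it passed with DESeq2 (adjusted p = 0.019), with DESeq2 size factors (0.035), without the low-count filter (0.0462), with a robust estimate of the spread (0.0475), and in 5 of the fits that left out a library. In Hay it was lost in 5 of the fits that left out a library (adjusted p between 0.0569 and 0.124) and without the 6 T12 libraries (0.328).

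SPRY2 and SPRY4 encode Sprouty proteins, which block receptor tyrosine kinase signalling upstream of ERK. In Grain medium SPRY4 stood at 10.1, 8.45 and 8.19 CPM at T0, at 7.04, 7.27 and 7.02 CPM at T4, at 7.78, 5.27 and 6.62 CPM at T8, at 9.42, 10.9 and 9.22 CPM at T12, at 7.50, 9.28 and 8.47 CPM at T16, and at 6.85, 6.80 and 7.81 CPM at T20. In Hay medium it stood at 3.64, 3.85 and 3.98 CPM at T0, at 2.70, 2.37 and 2.71 CPM at T4, at 3.11, 2.74 and 2.98 CPM at T8, at 6.20, 5.03 and 6.06 CPM at T12, at 4.05, 3.86 and 5.15 CPM at T16, and at 3.49, 3.50 and 3.72 CPM at T20. At each time the 3 Grain libraries lay above the 3 Hay libraries, as did 31.4% to 33.4% of all genes at any 1 time. The share of genes that did so at all 6 times was not counted. Over all times the lowest Grain library (5.27 CPM) lay below the highest Hay library (6.20 CPM). SPRY4 was 2.13-fold higher in Grain on average (log2 1.09, SE 0.050). Both media had their highest mean at T12, and time was called in Grain (adjusted p = 0.000279) and in Hay (adjusted p = 1.36e-08).

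SPRY2 ran between 12.0 and 14.8 CPM in Grain (median 13.0), against 8.32 to 12.5 CPM in Hay (median 10.3). Its Grain time means stayed within 1.05-fold of each other, and no dependence on time was called there (adjusted p = 0.968). In Hay its time means spanned 1.27-fold, with the highest at T16, and time was called (adjusted p = 0.00427). That Hay call was lost with T0 to T8 alone (adjusted p = 0.959) and with T12 to T20 alone (adjusted p = 0.184). The F test of whether the time course differed between the media was not called for SPRY2 (adjusted p = 0.204).

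SPRED1 encodes a Spred protein that brings the RAS inhibitor neurofibromin to the membrane. It was the member with lower levels in Grain, between 31.9 and 41.8 CPM (median 38.04), against 44.9 to 58.5 CPM in Hay (median 51.8). The media did not overlap, and the mean log2 difference was -0.47 (SE 0.019). In Grain its lowest time mean was at T12, 32.9 ± 0.929 CPM, whereas in Hay the T12 mean was 54.4 ± 0.969 CPM (SD, n = 3 each). Time was called in Grain (adjusted p = 3.39e-06) and in Hay (adjusted p = 0.000133). The Grain call was lost with T0 to T8 alone (0.593) and the Hay call with T12 to T20 alone (0.499). SPRED1 overlaps the annotated gene LOC114115935, with the same limit on its reads.

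Over the 6 times, 8 of the 9 members had a mean above 0 for Grain over Hay on the log2 scale and 1 had a mean below 0. Of all genes tested, 81.8% were called in this contrast, 37.9% as higher in Grain and 43.9% as lower. The median of the 9 means was 0.54, beside -0.07 for all genes, and the choice of members used this contrast. Beside these values, 6 of 9 epithelial markers were lower in Grain and 6 of 10 mesenchymal markers higher, and their part was not tested. Of the 54 values of a member at a time, 43 lay above 0 and 11 below. DUSP2, DUSP4, DUSP8, SPRY2 and SPRY4 lay above 0 at all 6 times, SPRED1 lay below 0 at all 6, and DUSP5, DUSP6 and DUSP10 took both signs. All 18 Grain libraries lay above all 18 Hay libraries for DUSP2, DUSP4 and DUSP8, which 15.4% of genes did, and all 18 lay below for SPRED1, which 11.9% of genes did.

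**Figure D2:**
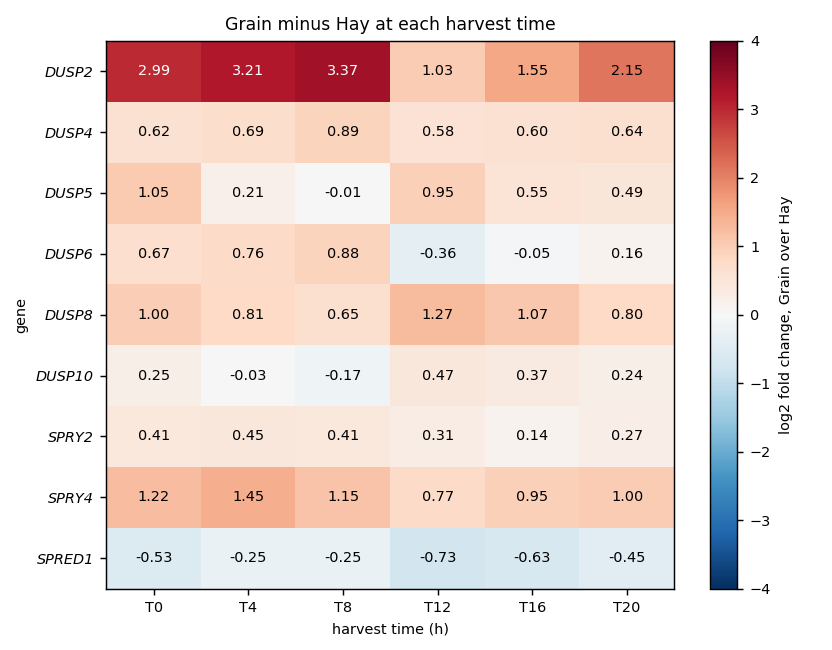
Log2 fold change of Grain over Hay for each of the 9 genes (rows) at each harvest time (columns, h), printed in each cell and coloured from blue (lower in Grain) to red (higher in Grain). DUSP2 is at 3.37 at T8 and at 1.03 at T12, and DUSP6 is at 0.88 at T8 and at -0.36 at T12.

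Whether the difference between the media depended on harvest time was tested on a contrast other than the mean. Earlier results of these data were known when the members were chosen, so their choice may not be free of this contrast. The difference depended on time for 7 of the 9 members, and 32.6% of all genes were called in this F test. The adjusted p was 1.91e-15 for DUSP6, 3.97e-11 for DUSP5, 2.98e-10 for DUSP2, 2.86e-07 for SPRED1, 9.9e-06 for DUSP10, 0.00278 for DUSP8 and 0.0267 for SPRY4. DUSP4 (0.334) and SPRY2 (0.204) were not called. The SPRY4 call did not hold with all genes kept whatever their counts (adjusted p = 0.0512), without the 6 T12 libraries (0.176) and when any of 6 libraries was left out (between 0.0508 and 0.0749). These 6 were Grain T4 replicate 2, Grain T12 replicates 1 and 3, Hay T4 replicate 2, and Hay T12 replicates 1 and 3. The DUSP8 call was also lost without the T12 libraries (adjusted p = 0.102). With T0 to T8 fitted alone, 3 of the 9 members were called for this test (DUSP5, DUSP10 and SPRED1), beside 12.9% of the 22031 genes tested in that fit. With T12 to T20 alone 4 were (DUSP2, DUSP5, DUSP6 and SPRED1), beside 10.4% of 21564 genes.

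Within a medium, harvest time was called for 7 members in Grain, beside 51.5% of all genes, and for 6 in Hay, beside 35.2% of all genes. DUSP5, DUSP6, SPRY4 and SPRED1 were called in both media, DUSP2, DUSP4 and DUSP10 in Grain, and DUSP8 and SPRY2 in Hay.

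Much of this lay between T8 and T12, a step examined after the time courses had been seen. In Grain, 7 of the 9 members passed the test for T12 against T8, beside 50.0% of all genes. In Hay, 5 of the 9 passed, beside 36.1% of all genes. The other steps between neighbouring times had smaller shares of all genes called. In Grain they were 20.8% at T4 against T0, 3.25% at T8 against T4, 10.4% at T16 against T12 and 13.7% at T20 against T16, and in Hay they were 1.48%, 0.489%, 6.69% and 2.33% in the same order. Over all 5 steps, 13 of the 45 values of a member at a step were called in Grain and 10 of 45 in Hay. The labels name no batch, and the time of harvest and any unlabelled split between T8 and T12 cannot be told apart.

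In Grain, DUSP2 fell at T12 against T8 on the log2 scale by 2.04 (SE 0.16, adjusted p = 1.84e-13), DUSP4 fell by 0.24 and SPRED1 fell by 0.27. DUSP5 rose by 1.39 (SE 0.067, adjusted p = 3.94e-19), SPRY4 by 0.58, DUSP10 by 0.54 and DUSP8 by 0.30. DUSP6 differed by -0.08 (SE 0.056) and SPRY2 by 0.02 (SE 0.081), and neither passed. In Hay, DUSP6 rose at T12 by 1.16 (SE 0.057, adjusted p = 1.62e-18), SPRY4 by 0.97, DUSP5 by 0.43 and SPRED1 by 0.20, and DUSP8 fell by 0.33. DUSP2 differed by 0.31 (SE 0.19) in Hay and SPRY2 by 0.12 (SE 0.082), and neither passed, though both did without Hay T8 replicate 1 (0.58 and 0.23). DUSP4 (0.06, SE 0.093) and DUSP10 (-0.10, SE 0.070) did not pass in Hay either. The DUSP4 call in Grain was lost when Grain T8 replicate 1, Grain T8 replicate 2 or Grain T12 replicate 2 was left out. DUSP8 was lost in Grain without Grain T8 replicate 2, and in Hay without Hay T8 replicate 3. The factors that scaled the Grain libraries were 1.038 to 1.055 at T8 and 0.8589 to 0.869 at T12. In Hay they were 1.072 to 1.088 and 0.9818 to 1.001. The size of small steps, such as those of DUSP4, DUSP8 and SPRED1, depends on this scaling. Scaling by DESeq2 size factors instead changed the call of no member step.

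The step itself differed between the media for 6 of the 9 members, beside 32.5% of all genes. The step in Grain minus that in Hay was -2.35 for DUSP2 on the log2 scale (SE 0.24, adjusted p = 1.01e-09) and -1.23 for DUSP6 (SE 0.080, adjusted p = 8.82e-15). It was 0.95 for DUSP5 (SE 0.095), 0.64 for DUSP10 (SE 0.099), 0.62 for DUSP8 (SE 0.13) and -0.47 for SPRED1 (SE 0.066). DUSP4, SPRY2 and SPRY4 did not pass, with adjusted p of 0.0646, 0.558 and 0.0852. DUSP4 passed in 3 of the fits that left out a library and SPRY4 in 2. DUSP5 rose in both media, by more in Grain, and DUSP6 rose in Hay.

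**Figure D3:**
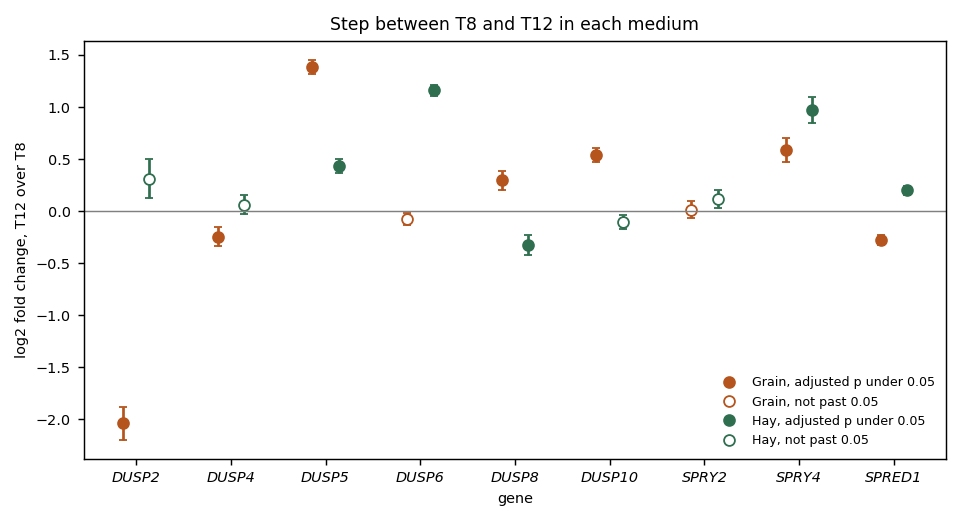
Log2 fold change at T12 over T8 (y axis) for each of the 9 genes (x axis), in Grain (left of each pair) and in Hay; bars are standard errors, filled points passed the test and open points did not. DUSP2 lies at -2.04 in Grain and 0.31 in Hay, and DUSP6 at -0.08 in Grain and 1.16 in Hay.

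After T12 some members moved back. In Grain, DUSP2 rose at T16 against T12 by 0.66 (SE 0.16, adjusted p = 0.00558) and DUSP5 fell by 0.47 (SE 0.065, adjusted p = 3.35e-06). At T20 against T16 in Grain, DUSP5 fell by 0.29 (SE 0.066, adjusted p = 0.00213) and SPRED1 rose by 0.15 (SE 0.048, adjusted p = 0.0255). This SPRED1 call was lost in 4 of the fits that left out a library. In Hay, DUSP6 fell at T16 by 0.32 (SE 0.056, adjusted p = 0.000221) and at T20 against T16 by 0.33 (SE 0.057, adjusted p = 0.000414). SPRY4 fell in Hay at T16 against T12 by 0.40 (SE 0.12, adjusted p = 0.0384), a call lost in 4 of the fits that left out a library. Of all genes, 10.4% were called in Grain and 6.69% in Hay at T16 against T12. At T20 against T16 these shares were 13.7% and 2.33%. At T4 against T0, DUSP5 fell in Grain by 0.93 (SE 0.067, adjusted p = 1.05e-12). SPRY4 fell at that step in Grain by 0.33 (SE 0.12, adjusted p = 0.0428) and in Hay by 0.56 (SE 0.13, adjusted p = 0.0138), and SPRED1 fell in Hay by 0.22 (SE 0.046, adjusted p = 0.00507). At T4 against T0 the SPRY4 call in Grain was lost in 9 of the fits that left out a library. At this step the SPRY4 call in Hay was lost in 3 such fits and the SPRED1 call in Hay in 2. No member passed at T8 against T4 in Grain or in Hay at an adjusted p of 0.05. At that step DUSP5 in Grain had an unadjusted p of 0.00493 and was called by DESeq2, and it was the 1 value of the 18 with an unadjusted p under 0.05.

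The title of the series asks about circadian expression, so a cosine of fixed 24 h period was fitted in each medium. The 6 harvests cover less than a full period. The fit does not tell a 24 h component apart from a step between T8 and T12. A 24 h component was called for 4 of the 9 members in Grain, beside 31.8% of all genes, and for 3 in Hay, beside 20.7% of all genes. In Grain DUSP2 had an amplitude of 0.88 on the log2 scale (SE 0.11) with a fitted peak at 3.53 h after T0, and SPRED1 one of 0.13 (SE 0.028) with a peak at 2.69 h. DUSP5 had an amplitude of 0.39 (SE 0.11) with a peak at 16.9 h, and DUSP10 one of 0.19 (SE 0.040) with a peak at 15.7 h. The measured DUSP5 means in Grain were 32.2 CPM at T0, 38.5 CPM at T12 and 27.7 CPM at T16. Both T0 and T12 were high, which a 24 h cosine does not follow. In Hay DUSP6 had an amplitude of 0.50 (SE 0.057) with a peak at 15.0 h, SPRY4 one of 0.41 (SE 0.088) with a peak at 15.0 h, and SPRY2 one of 0.16 (SE 0.033) with a peak at 16.8 h. The DUSP5 call in Grain was lost when Grain libraries were fitted alone (adjusted p = 0.113) and without Grain T4 replicate 1 (0.0508), while with Hay libraries alone DUSP5 was called in Hay (0.000447).

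The 24 h component differed between the media for 4 of the 9 members, beside 11.3% of all genes. They were DUSP6 (adjusted p = 5.96e-05), DUSP2 (0.000144), SPRED1 (0.00451) and DUSP10 (0.0117). For SPRY2 (0.0906) and SPRY4 (0.25), called in Hay and not in Grain, the difference of the component did not pass, but for SPRY2 it did without Grain T20 replicate 3 or without Hay T8 replicate 1 (adjusted p of 0.0436 to 0.0495). Without the 6 T12 libraries the difference passed for DUSP5 (0.0101), and SPRED1 had a component in Hay (0.0144).

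The genes closest to each member in their course over time were found by Pearson correlation of the 12 group means of log2 CPM, centred within each medium, among 10581 genes with a symbol and at least 5 CPM in a medium. The 12 means share the 6 harvests, and the values are descriptions. DUSP2 was closest to RASGEF1A (r = 0.98), which encodes an exchange factor of the RAS family, and to LIPH (0.964), a lipase. DUSP5 was closest to PPP1R14B (0.983) and to the stress keratin KRT6A (0.98). DUSP6 was closest to the nucleolar gene NOP53 (0.986) and to TTLL12 (0.978). DUSP10 was closest to GFPT1 (0.988), the entry enzyme of hexosamine synthesis, and to ATAD2 (0.985). SPRY4 was closest to DTD1 (0.975) and FMNL3 (0.974), and SPRED1 to the serotonin receptor gene HTR2A (0.949) and the cannabinoid receptor gene CNR1 (0.935). For DUSP4 (R3HCC1, 0.886, and PCGF5, 0.879), DUSP8 (ZCCHC12, 0.918, and FADS3, 0.913) and SPRY2 (GMIP, 0.904, and BPHL, 0.869) the highest values were lower.

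Other genes of the pathway were taken from 9 lists of 112 genes, of which 110 were tested. The lists were chosen with earlier results of these data known, so the counts of genes called in them are descriptions. In the mean difference between the media 58 were higher in Grain, 43 were lower and 9 were not called, beside the 37.9% of all genes that were higher and 43.9% that were lower. Of the 4 other MAP kinase phosphatases, 1 was higher, 2 were lower and 1 was not called, with a median log2 difference of -0.25, beside -0.07 for all genes. DUSP1, a nuclear phosphatase that glucocorticoids also induce, was lower in Grain, at 92.9 ± 20.8 CPM against 135 ± 15.7 CPM in Hay (SD, n = 18 each; log2 -0.56, SE 0.018). DUSP7, a close relative of DUSP6, was higher (log2 0.50, SE 0.040), and DUSP16, a JNK phosphatase, differed by 0.06 (SE 0.041) and did not pass.

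Of the 4 other Sprouty and Spred genes, 3 were higher and 1 was lower, with a median of 0.30. SPRED3 was higher by 1.04 (SE 0.045), SPRY1 by 0.35 (SE 0.038) and SPRED2 by 0.26 (SE 0.017), and SPRY3 was lower at -0.59 (SE 0.051). Of the 9 small atypical phosphatases, 6 were higher, 2 were lower and 1 was not called (median 0.45). DUSP3, which acts on ERK and JNK, was higher by 0.89 (SE 0.038), and DUSP14 by 0.83 (SE 0.017). Of the 11 other inhibitors of RAS-ERK signalling, 6 were higher, 4 were lower and 1 was not called (median 0.18). The FGF receptor antagonist gene IL17RD was higher by 0.87 (SE 0.017), the ubiquitin ligase gene CBL by 0.67 (SE 0.019), and the EGF receptor inhibitor gene ERRFI1 by 0.33 (SE 0.014).

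Of the 15 growth factor genes tested, 5 were higher, 8 were lower and 2 were not called (median -0.25). VEGFA was higher by 1.499 (SE 0.018) and HBEGF, a ligand of the EGF receptor, by 0.63 (SE 0.023), while EREG, another such ligand, was lower at 39.8 ± 2.99 CPM in Grain against 122 ± 8.53 CPM in Hay (SD, n = 18 each; log2 -1.61, SE 0.021). Of the 12 receptor genes, 7 were higher, 4 were lower and 1 was not called (median 0.12), with EGFR higher by 0.41 (SE 0.017) and PDGFRA lower at -0.80 (SE 0.037). Of the 19 RAS-ERK cascade genes tested, 12 were higher, 6 were lower and 1 was not called (median 0.09). HRAS was higher by 1.18 (SE 0.052), and MAPK3, which encodes ERK1, by 0.40 (SE 0.017). The adaptor gene SHC1 was lower at -0.86 (SE 0.018).

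Of the 16 genes of the JNK and p38 cascades, 8 were higher, 7 were lower and 1 was not called (median 0.05). The p38 family gene MAPK12 was higher by 1.54 (SE 0.050) and the kinase gene MAPKAPK2 by 1.18 (SE 0.013). MAP3K5, an upstream stress kinase, was lower at -1.01 (SE 0.031). Of the 20 transcripts known to respond to ERK, 10 were higher, 9 were lower and 1 was not called (median 0.13), and for 17 of the 20 the difference depended on time, beside 32.6% of all genes. In the order in which the other 8 lists are given above, it did so for 1 of 4, 2 of 4, 4 of 9, 6 of 11, 9 of 15, 6 of 12, 8 of 19 and 6 of 16 genes. EGR1 stood at 29.3 ± 14.9 CPM in Grain and 4.90 ± 0.775 CPM in Hay (SD, n = 18 each; log2 2.45, SE 0.030). ETV5 was higher by 1.28 (SE 0.015), and PHLDA1 and IER3 were lower at -1.52 (SE 0.017) and -1.48 (SE 0.019). SPRY1, DUSP16, SPRED2, CBL, EREG and EGFR overlap another annotated gene.

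**Figure D4:**
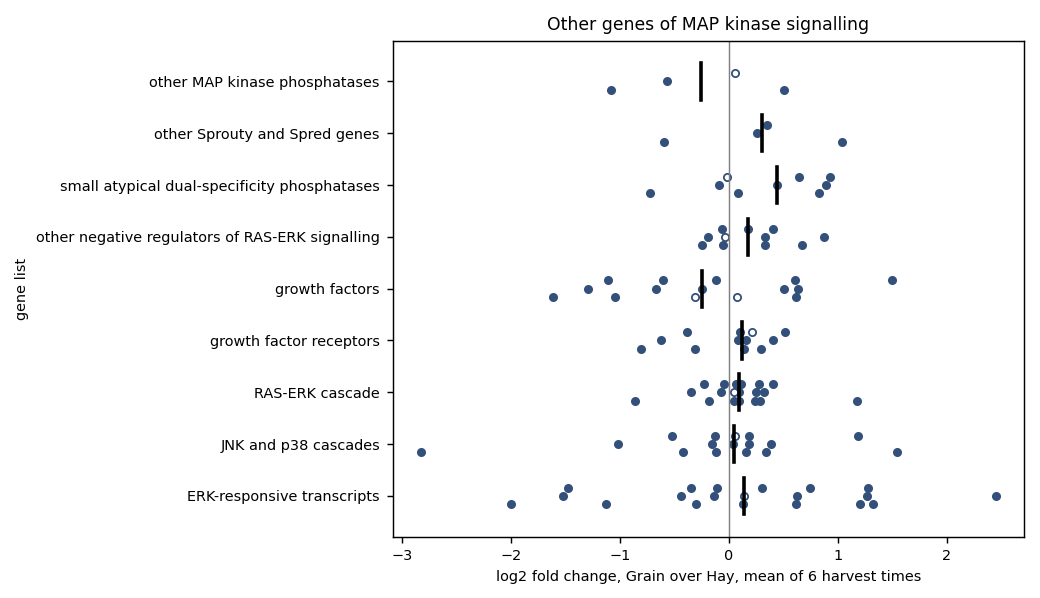
Log2 fold change of Grain over Hay, mean of the 6 times (x axis), for the 110 tested genes of 9 pathway lists (rows); each point is a gene, filled where it passed the test, and the short bar marks the median of its list. Each list except the other Sprouty and Spred genes holds an open point, all 9 lists hold points on both sides of 0, and the point farthest to the right is EGR1 at 2.45.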

How the data were processed

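Per the labels' protocols, TRNzol RNA went into TruSeq RNA libraries, which keep no strand, for paired-end NovaSeq reads. The submitters' processing notes name StringTie 2.1.5, HISAT2 2.2.1 and SAMtools 1.20, and the sources used here do not give a genome build. The authors deposited whole-number read counts for 35223 genes and 36 libraries, with no normalisation, and the labels put the libraries in 12 groups.

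From these counts, filterByExpr (minimum count 10, minimum total count 15) kept 22488 genes, TMM scaled the libraries, and edgeR 4.0.16 (limma 3.58.1, R 4.3.3) fitted a mean per group with quasi-likelihood tests. CPM use the TMM factors. Tests were 2-sided, p-values were Benjamini-Hochberg adjusted over all genes, and 0.05 was the threshold. Rhythm was fitted as cosine and sine terms of 24 h in each medium. The pipeline was tested on simulated counts in which the changed genes were drawn among those of at least 1 CPM; a first version that drew them from all tested genes recovered fewer and failed the recovery limit set for it. A robust fit of the same model was the first one run on the members, and the default fit was then taken as the main one to match earlier processing of these data.

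All members, pathway lists and marker lists were chosen with earlier results of these data known. The T12 against T8 comparisons were added after the time courses were seen. Named were all 9 members, up to 4 genes per pathway list with the smallest p among those of at least 5 CPM in a medium, and the 2 genes closest to each member in time course; not all genes this rule gives are described. All 9 symbols matched RefSeq genes (assembly ARS-UI_Ramb_v3.0), used only for names and overlaps. Promoter and protein sequences were not analysed here.

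Mean depth over the 18 libraries of each medium (± SD) was 60.3 ± 3.82 M for Grain and 61.4 ± 3.17 M for Hay. Replicates differed beyond counting noise in all 36 pairs (chi-square per degree of freedom 4.76 to 24.2). Alternatives were DESeq2 1.42.0, its size factors, all genes kept, a linear trend, a block for the replicate number, each medium alone, each library left out, subsets of times and a robust spread estimate.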

Additional observations from a re-analysis of the deposited data

Results flagged for a closer look

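For 7 genes the difference between the media changed with harvest time in a test of that change over all genes, which called 32.6% of them. The adjusted p was 1.91e-15 for DUSP6, 3.97e-11 for DUSP5, 2.98e-10 for DUSP2, 2.86e-07 for SPRED1, 9.9e-06 for DUSP10, 0.00278 for DUSP8 and 0.0267 for SPRY4. The SPRY4 value no longer passed the threshold when any of 6 libraries was left out (0.0508 to 0.0749). For 4 genes the fitted 24 h component differed between the media, beside 11.3% of all genes, with adjusted p of 5.96e-05 for DUSP6, 0.000144 for DUSP2, 0.00451 for SPRED1 and 0.0117 for DUSP10. This fit does not tell a 24 h component apart from a step between T8 and T12.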

How the results depend on the processing

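With a straight trend over time in place of a mean per time, edgeR called 0 of the 9 members for the dependence of the medium difference on time (against 7, with 3 at an unadjusted p under 0.05), 1 for time in Grain (against 7) and 2 for time in Hay (against 6); over all genes these counts were 13 against 7322, 202 against 11579, and 572 against 7927. With T0 to T8 alone the same 3 tests called 3, 3 and 3 members, and 2843, 6165 and 995 genes. With T12 to T20 alone they called 4, 6 and 3 members, and 2251, 6235 and 3017 genes. Without the T12 libraries, time in Hay was called for 5089 genes. These 3 subsets of times and the robust estimate were added after the data had been seen. The subsets hold fewer libraries and times.

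Leaving out 1 library at a time gave 6 to 7 members for the dependence on time, 6 to 8 for time in Grain, 5 to 7 for time in Hay, 3 to 4 for the 24 h component in Grain, 3 in Hay in every fit, and 4 to 5 for its difference. Over all genes these ranges were 6838 to 7400, 10956 to 11640, 7097 to 8018, 6316 to 7655, 3895 to 4756 and 2116 to 2835. The number of members higher in Grain was 8 in each of these fits, and 7 with T12 to T20 alone. The members were chosen with this difference known, so that count is a description and not a test of its direction. No called direction of a member step or of a named pathway gene reversed under any setting tried. Same-numbered libraries did not deviate together. Their deviations from the group means were correlated at -0.0393 to 0.0277 over 18 pairs across the media, at -0.0382 to 0.0274 over 45 pairs across times in Grain, and at -0.036 to 0.0409 over 45 such pairs in Hay. With a block for the replicate number the counts were 7 members for the dependence on time, 7 for time in Grain and 6 for time in Hay, and none of the 54 member tests or 99 member steps changed its call. DUSP8 in Grain was the 1 member test whose call the robust estimate changed (adjusted p = 0.0475, against 0.0596), and among the steps it added DUSP5 in Hay at T20 against T16. Scaling by DESeq2 size factors put the median of all genes at -0.098 for Grain over Hay, against -0.066 with TMM. For 8 member steps DESeq2 gave no adjusted p. DUSP2 in Hay had 70 to 165 counts per library, which limits what could be detected there.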
